A study of Mus musculus with 8 samples.

Results

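The sites described here are 3378 stretches of liver chromatin at which the glucocorticoid receptor (GR) had peaks under both caloric restriction and corticosterone, was not called in both control libraries, and where no FOXO1 region lay. They were chosen by peak presence alone. Overlapping rows of the 6 GR peak lists were merged into 51431 sites, a site counted as held by a group if it had a peak in each of the group's 2 libraries, and sites held by CR and NR+CORT but not by NR were kept if they overlapped no region of the FOXO1 list. The 3378 sites, called shared sites without FOXO1 below, made up 6.57% of all sites. Beside them stand 1316 sites chosen the same way that did overlap a FOXO1 region (shared sites with FOXO1) and 3993 sites that all 3 groups held and that overlapped none (constant sites without FOXO1). Of all sites, 11.5% were held by CR and not by NR, 24.3% by NR+CORT and not by NR, and 9.13% by both and not by NR. Since these calls made the selection, nothing is read from them.

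All libraries came from livers of C57BL/6J mice, collected at lights-off and precipitated for the factor named in the label. NR mice were controls fed only during the night, CR mice were calorically restricted, and NR+CORT mice were fed during the night and received corticosterone, the main glucocorticoid of mice. Each group had 2 GR libraries. A single FOXO1 list came from 2 CR libraries that were merged before peak calling, so a site without FOXO1 is a site without FOXO1 under restriction only, and no replicate spread exists for that call. The names of NR replicate 2 and both CR libraries follow one style and those of NR replicate 1 and both NR+CORT libraries another. The labels do not say what the styles mark, and CR and NR+CORT cannot be told apart from them.

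GR is a nuclear receptor that moves to chromatin once it binds glucocorticoids. As a dimer it reads the glucocorticoid response element (GRE), an inverted repeat of a short half-site, and it also sits at elements of liver factors such as C/EBP and HNF4 or is tethered to other proteins, STAT factors among them. FOXO1 is a forkhead factor that insulin signalling keeps out of the nucleus and that is active in fasted liver.

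Sequences of 200 bases around the summit are shown for the highest-ranked shared sites without FOXO1 that held one of 12 short motifs, because they carry the elements counted later on. Rank is the mean, over the 4 CR and NR+CORT lists, of the percentile of the peak's fold enrichment within its list. Capitals mark the GRE (GNACANNNTGTNC) where the window holds one and every other match of the 12 motifs where it does not. All are given on the plus strand of mm10 as stored in the GRCm38 reference. The first 4 are the leading sites that met this condition, at chr10:127492192-127492391 near Stac3, chr13:51866175-51866374 near Gadd45g, chr1:54913030-54913229 in Ankrd44 and chr1:88166551-88166750 at Ugt1a5.
Stac3: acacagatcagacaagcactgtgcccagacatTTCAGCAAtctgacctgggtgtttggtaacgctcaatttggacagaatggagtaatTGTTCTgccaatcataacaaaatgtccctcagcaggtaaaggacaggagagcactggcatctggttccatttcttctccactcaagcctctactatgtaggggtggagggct
Gadd45g: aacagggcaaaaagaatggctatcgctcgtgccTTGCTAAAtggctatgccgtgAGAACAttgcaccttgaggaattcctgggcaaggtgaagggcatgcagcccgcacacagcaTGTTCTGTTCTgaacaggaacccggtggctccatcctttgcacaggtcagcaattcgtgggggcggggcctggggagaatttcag
Ankrd44: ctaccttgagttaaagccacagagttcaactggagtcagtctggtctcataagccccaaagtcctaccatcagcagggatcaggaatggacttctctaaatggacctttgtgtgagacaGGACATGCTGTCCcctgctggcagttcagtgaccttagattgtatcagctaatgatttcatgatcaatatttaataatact
Ugt1a5: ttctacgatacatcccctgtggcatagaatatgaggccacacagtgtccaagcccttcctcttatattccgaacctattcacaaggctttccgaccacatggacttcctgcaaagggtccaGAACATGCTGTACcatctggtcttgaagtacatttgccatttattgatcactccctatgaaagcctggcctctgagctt

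The windows near Stac3 and Gadd45g hold single GR half-sites (the hexamer AGAACA, or its reverse complement TGTTCT) together with a C/EBP element, and no GRE. The next pair are the sites with a motif among the 5 highest-ranked ones that had no peak in either NR library, at chr14:8309788-8309987 in Fam107a (a GRE) and chr11:76709934-76710133 near Trarg1 (a forkhead element).
Fam107a: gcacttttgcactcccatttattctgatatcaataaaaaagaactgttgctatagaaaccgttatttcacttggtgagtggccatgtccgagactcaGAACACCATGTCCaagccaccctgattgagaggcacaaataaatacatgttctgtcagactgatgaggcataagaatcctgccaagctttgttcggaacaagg
Trarg1: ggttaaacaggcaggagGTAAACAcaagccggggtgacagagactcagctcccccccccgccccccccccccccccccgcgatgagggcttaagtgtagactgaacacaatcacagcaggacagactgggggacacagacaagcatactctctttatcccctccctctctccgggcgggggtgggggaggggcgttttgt

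Most of the shared sites without FOXO1 did carry a GR peak in a control liver. NR replicate 1 had a peak at 3168 of the 3378 (93.8%, exact 95% interval 92.9 to 94.6, counting error only), NR replicate 2 alone had one at 31 (0.918%), and 179 (5.30%, 4.57 to 6.11) had a peak in neither. Over all sites, 31.4% had no peak in either NR library. The 2 NR lists differ in length, with 36234 distinct regions in replicate 1 and 12458 in replicate 2, so that not being held by NR meant, for nearly all sites here, not being in the shorter list. With replicate 2 alone standing for NR the rule gave 3391 sites, and with replicate 1 alone it gave 210. When every library was limited to its 12458 regions with the smallest p-values, 862 sites met the rule, and 196 of them had no NR peak.

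Peak strength was moderate and differed among libraries. The caller's fold enrichment, a ratio over local background, is comparable only within a list, so ranks within lists are given as a description. The median percentile was 49.5 in CR replicate 1, 44.2 in CR replicate 2, 54.2 in NR+CORT replicate 1 and 70.5 in NR+CORT replicate 2. In NR replicate 1 the 3168 peaks had a median percentile of 65.5 (quartiles 49.8 and 78.3), and in NR replicate 2 the 31 peaks had one of 36.0. The 5 lists held 36234 (NR replicate 1), 22707 and 18747 (CR) and 29473 and 39136 (NR+CORT) distinct regions, and a longer list gives the same site a higher percentile. Medians were higher in the longer lists, and the quartile ranges of all 5 libraries overlapped. Mean percentiles over the CR and NR+CORT lists had a median of 52.7, against 63.8 at shared sites with FOXO1 and 65.0 at constant sites without FOXO1.

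**Figure D1:**
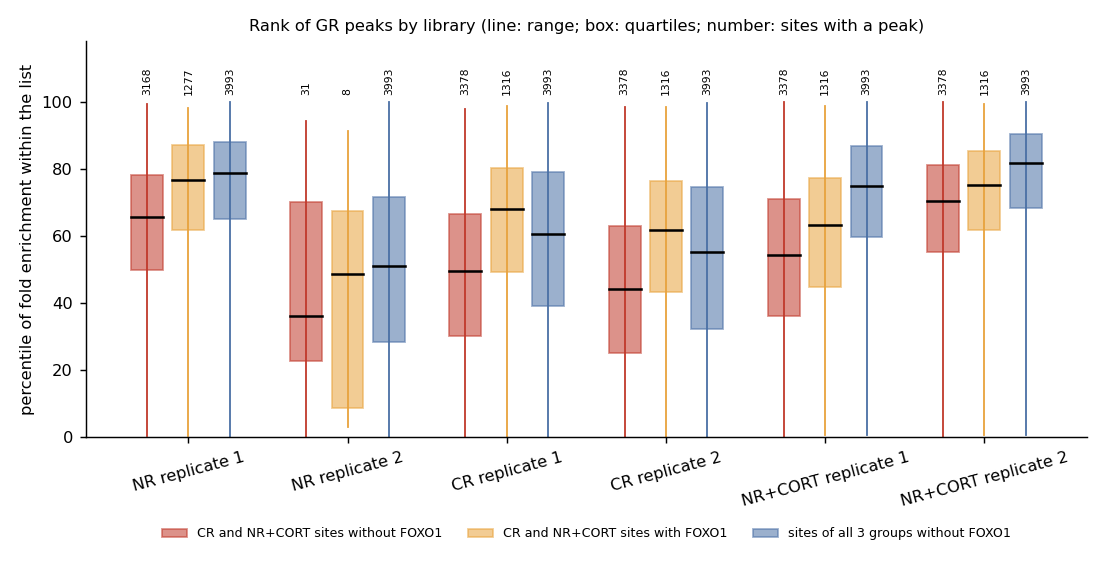
Percentile of fold enrichment within each of the 6 GR lists (vertical axis, percent) for the 3 sets of sites, with the range as a line, quartiles as a box, the median as a bar and the number of sites with a peak above it. In every CR and NR+CORT library the shared sites without FOXO1 have the lowest median, from 44.2 to 70.5.

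Across the 3378 sites the ranks of fold enrichment were more alike between replicates than between treatments. Spearman's rho was 0.584 between the CR replicates and 0.528 between the NR+CORT replicates, and lay between 0.241 and 0.364 for the 4 pairs of a CR with an NR+CORT library. For NR replicate 1 against these 4 libraries it lay between 0.293 and 0.354 over 3168 sites. These are descriptions across sites of the same genome, not across animals. Summits were close together, with all 4 CR and NR+CORT summits inside 100 bp at 53.4% of the sites, compared with 63.8% of shared sites with FOXO1 and 48.7% of constant sites without FOXO1.

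The peak with the largest q-value among the 4 lists still had a q of at most 0.01 at 2801 of the 3378 sites (82.9%). A further 3886 sites missed the rule by 1 of the 4 lists, and at 2143 of these the missing list was CR replicate 2. The nearest FOXO1 region lay a median of 27.3 kb away (quartiles 6.99 and 93.5 kb), and 134 sites (3.97%) had one within 1 kb. Closest were a site near Ackr2, a chemokine-scavenging receptor (chr9:121880843-121881612, 101 bp away), one near Vps26c (chr16:94497908-94498520, 109 bp) and one near Fgr (chr4:132960183-132961410, 218 bp). The sites dropped for the smallest overlap were near Rfx7 (chr9:72530550-72532925, 111 bp shared), Nfkb2 (chr19:46290656-46291073, 190 bp) and Unc93a (chr17:13129887-13130309, 211 bp). In CR replicate 1 the 3 kept sites had percentiles of 25.5, 49.7 and 67.7. The 3 dropped ones had 58.9, 23.9 and 75.2, and these ranks overlapped. In NR+CORT replicate 1 they did not overlap, with 8.66, 31.5 and 9.02 for the kept sites and 82.9, 52.6 and 72.0 for the dropped ones. In CR replicate 2 and NR+CORT replicate 2 the ranks overlapped.

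The 10 highest-ranked sites are each named here by the nearest protein-coding start. Fold enrichments are given in the order NR replicate 1, CR replicates 1 and 2, NR+CORT replicates 1 and 2, and no site of the 10 had a peak in NR replicate 2. Since each library is scaled to its own background, libraries are set against each other by percentile. The 10 were picked by rank in the CR and NR+CORT lists, so a lower percentile in NR replicate 1 follows in part from the pick. The top site (chr10:127492002-127492720) lies in an intron of R3hdm2, 9.32 kb upstream of Stac3, with fold enrichments of 12.7, 26, 17.8, 40.5 and 40.4. It stood at the 88.8 percentile in NR replicate 1 and between 95.9 and 99.0 in the other 4 libraries. The second is an intergenic site 19.6 kb downstream of the start of Gadd45g, a stress-inducible growth-arrest gene (chr13:51865542-51867057), with 9.63, 14.5, 23.7, 90.7 and 138. There it stood at the 99.9 percentile of both NR+CORT lists, at 90.4 and 97.6 in CR and at 80.0 in NR replicate 1. A site in an intron of Ankrd44, which encodes a regulatory subunit of a protein phosphatase (chr1:54912760-54913499), had 7.71, 25.9, 29.1, 18.3 and 47.5. Its percentiles were 97.1 and 98.3 in CR and 92.1 and 99.1 in NR+CORT, which overlapped, and 69.3 in NR replicate 1.

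A promoter site 0.321 kb downstream of the Ugt1a5 start (chr1:88165530-88167136) sits in the cluster of glucuronosyltransferases that conjugate bilirubin, steroids and drugs. It had fold enrichments of 12, 27.3, 18, 19.9 and 33.2 in the same order of libraries. An intergenic site 12.4 kb upstream of Adgrf1, an adhesion receptor gene (chr17:43257612-43258249), had 5.57, 23.8, 13.4, 23.3 and 27.8, and its NR peak stood at the 48.7 percentile. A promoter site of Inpp5b, which encodes an inositol polyphosphate phosphatase (chr4:124741682-124743508), had 7.44, 19.4, 18.7, 17.8 and 37.6. At these 3 sites all CR and NR+CORT libraries were above NR replicate 1 in percentile, which the pick by CR and NR+CORT rank favours. All 3 windows held a GRE.

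The remaining 4 of the 10 held no GRE. A site 91.9 kb upstream of Bcl6, a transcriptional repressor gene (chr16:24080231-24081181), had 11.6, 13.1, 15.7, 47.8 and 33.9, a C/EBP and a STAT element, and a FOXO1 region 1.28 kb away. An intergenic site 17.4 kb upstream of Rab7, a gene of late endosome traffic (chr6:88062265-88063143), had no NR peak and fold enrichments of 12.9, 15.4, 35.4 and 57.5 in the CR and NR+CORT libraries. It held none of the 12 motifs. At a site in the gene Retreg1, 35.9 kb upstream of Zfp622 (chr15:25948184-25948833), the fold enrichment was 4.45 in NR replicate 1 and 19.9, 16.3, 21.7 and 21.9 in the others. Its percentiles in CR and NR+CORT were close together, from 94.7 to 95.3, against 31.2 in NR replicate 1. An intronic site 14.1 kb into Hsd17b2, which encodes an enzyme that oxidises sex steroids (chr8:117715608-117716465), had 3.42 in NR replicate 1 and 29.2, 11.3, 36.4 and 18.9 in the others. Its NR peak was at the 10.8 percentile, the lowest of the 9 NR peaks among these 10 sites.

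Of the sites without any NR peak, the highest-ranked after the Rab7 site was a promoter site of the transcript Gm19439, 3.19 kb upstream of Hapln2 (chr3:88030484-88031065), with fold enrichments of 18 and 9.37 in CR and 21.7 and 15.1 in NR+CORT. A site at an internal start of Fam107a, a stress-responsive gene (chr14:8309375-8310432), had 8.75 and 7.35 in CR and 58.7 and 41.8 in NR+CORT. The percentiles there were 75.2 and 75.1 in CR and 99.7 and 98.9 in NR+CORT, which did not overlap, though both NR+CORT lists are longer and so give a site higher percentiles. An intergenic site 30.2 kb downstream of the start of Trarg1, a gene of glucose transporter traffic (chr11:76709611-76710406), had 11.2 and 8.35 in CR and 16.6 and 12.1 in NR+CORT. A second intronic site of Hsd17b2, 24.0 kb from its start (chr8:117725572-117726231), had 9.10 and 6.01 in CR and 29.3 and 11.8 in NR+CORT. Its percentiles, 76.9 and 64.0 against 97.6 and 84.8, did not overlap either, with the same difference in list length.

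Position in the genome, which the rule did not use, separated the 3 sets. Sites centred no more than 1 kb from an annotated start of transcription are called promoter sites. Of the shared sites without FOXO1, 806 (23.9%, exact 95% interval 22.4 to 25.3) were promoter sites, 1546 (45.8%) lay in introns, 123 (3.64%) in exons and 903 (26.7%) between genes. The promoter share was 14.3% at shared sites with FOXO1, a difference of 9.57 percentage points (95% interval 7.13 to 11.9; Fisher's exact test, two-sided, adjusted p = 2.10e-12), and 49.96% at constant sites without FOXO1, a difference of -26.1 points (-28.2 to -24.0; Fisher's exact test, adjusted p = 3.57e-118). Median distances to the nearest start were 6.98 kb, 9.49 kb and 1.003 kb in the 3 sets. Without NR replicate 2, which left 210 sites against 39 with FOXO1, the first difference no longer passed (odds ratio 1.06 in place of 1.88). These tests compare sites of these libraries, not animals, and adjustment was over 14 features in 3 comparisons.

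Within the shared sites without FOXO1 the promoter share differed by NR peak. Promoter sites made up 24 of the 179 without any NR peak (13.4%) and 782 of the other 3199 (24.4%), a difference of -11.0 points (-15.5 to -5.09; Fisher's exact test, adjusted p = 0.00298), which no longer passed with lists of equal length (odds ratio 0.833) or at sites of at most 1000 bp (0.606). For those 179 against shared sites with FOXO1 the odds ratio was 0.929 (Fisher's exact test, adjusted p = 0.923). For the next count a constant GR site was any other site held by all 3 groups, with or without a FOXO1 region. One centred within 10 kb was found for 1078 of the shared sites without FOXO1 (31.9%), for 35.3% of those with FOXO1 and for 32.8% of constant sites without FOXO1. Neither difference passed (-3.42 points, -6.47 to -0.427, and -0.870 points, -3.01 to 1.28; Fisher's exact test, adjusted p = 0.0805 and 0.576). The first did pass without CR replicate 2 (odds ratio 0.861 in place of 0.858) and without NR+CORT replicate 2 (0.841), and the second passed in the other direction without NR replicate 2 (1.55 in place of 0.961). For sites without any NR peak the share was 40.2% (72 of 179) against 31.4% (1006 of 3199) for the others, which did not pass (odds ratio 1.47; Fisher's exact test, adjusted p = 0.0540) but did without CR replicate 1 (1.60) or CR replicate 2 (1.36).

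**Figure D2:**
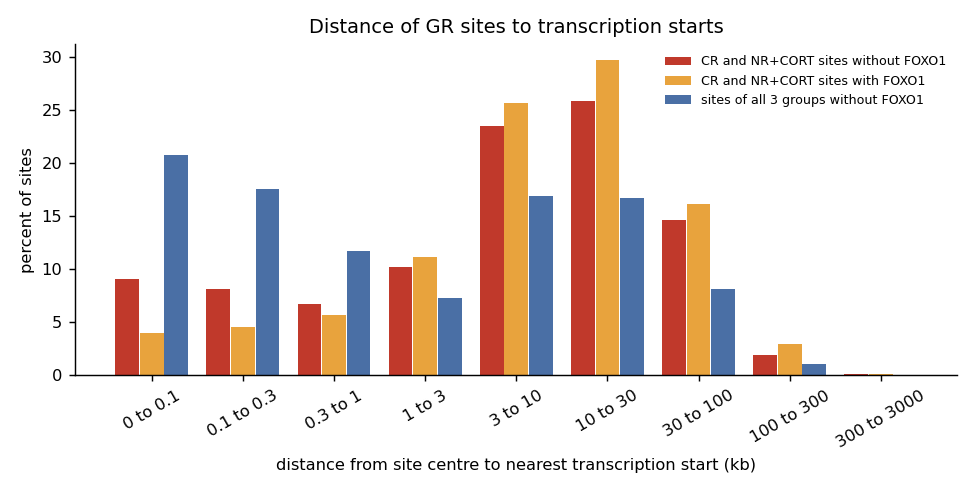
Percent of sites in each set (vertical axis) by distance from the site centre to the nearest annotated transcription start (horizontal axis, kb). Constant sites without FOXO1 gather within 1 kb, with 49.96% there, and the shared sites without FOXO1, with 23.9%, lie between them and the shared sites with FOXO1.

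Sequence at the summits was then compared by 12 exact motifs searched on both strands in the 200 bp window. In the shared sites without FOXO1 the most frequent were the GR hexamer AGAACA (718 sites, 21.3%) and the C/EBP element TTGCNNAA (679 sites, 20.1%), and the GRE was found at 99 (2.93%). Windows 2 kb either side of the same summits held the GRE in 0.488%, the C/EBP element in 7.86% and the hexamer in 17.98%. The shares of GRE and C/EBP were thus above those of the neighbouring sequence and that of the hexamer was close to it. Over all 51428 GR sites on the autosomes, X and Y the shares were 1.89%, 15.1% and 18.4%. For these the window was centred on the highest-ranked summit of all 6 libraries, NR included. The 99 sites held 101 GRE matches in 87 spellings, the most frequent being GAACAAGATGTTC and GAACATTTTGTAC with 3 matches each, and 18 of the 101 had the full GAACA and TGTTC half-sites. The hexamer can lie inside a GRE, and 51 sites held both. Of the 3378 sites, 1559 (46.2%) held none of the 12 motifs.

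Against shared sites with FOXO1, 3 motifs differed when Cochran-Mantel-Haenszel tests were run over 5 classes of window GC. The forkhead element TGTTTAC was found at 116 sites (3.43%) without FOXO1 and at 215 (16.3%) with it, a difference of -12.9 points (-15.1 to -10.9; odds ratio 0.208, 0.164 to 0.264; adjusted p = 2.29e-43, n = 3378 and 1316). This split was made on the FOXO1 list itself. The 2.55% of the flanking windows lay below the exact interval of the share without FOXO1 (2.85 to 4.10). The difference from the flanking windows was not tested. The GRE was more frequent without FOXO1, at 2.93% against 1.29% (difference 1.64 points, 0.713 to 2.43; odds ratio 2.62 with an interval of 1.56 to 4.39; adjusted p = 0.000866, n = 3378 and 1316), though without NR replicate 2 it did not pass (4.998, adjusted p = 0.307, n = 210 and 39). For the GR hexamer, 21.3% against 19.8%, the odds ratio was 1.25 (1.06 to 1.46; adjusted p = 0.0286, n = 3378 and 1316), and without GC strata it no longer passed (1.09, adjusted p = 0.394, n = 3378 and 1316), nor did it without CR replicate 1 (1.16) or without NR replicate 2 (0.955). C/EBP elements were at 20.1% and 25.2%, and HNF4 elements (CAAAGTCCA) at 2.07% and 3.04%, neither of which passed within GC strata (odds ratios 0.887, 0.760 to 1.03, and 0.764, 0.513 to 1.14). Without strata the C/EBP difference was -5.05 points (-7.80 to -2.39; p = 0.000199 by Fisher's exact test, not adjusted), so this null depended on the strata. STAT, E-box (CACGTG), ETS (CCGGAAGT), IRF, AP-1 (TGANTCA), NR5A (TCAAGGTCA) and PPAR elements did not pass within GC strata either. Over all GR sites on the autosomes, X and Y the shares were 5.19% for the forkhead element, 1.47% for HNF4, 8.16% for STAT, 2.35% for IRF and 0.121% for the PPAR repeat.

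**Figure D3:**
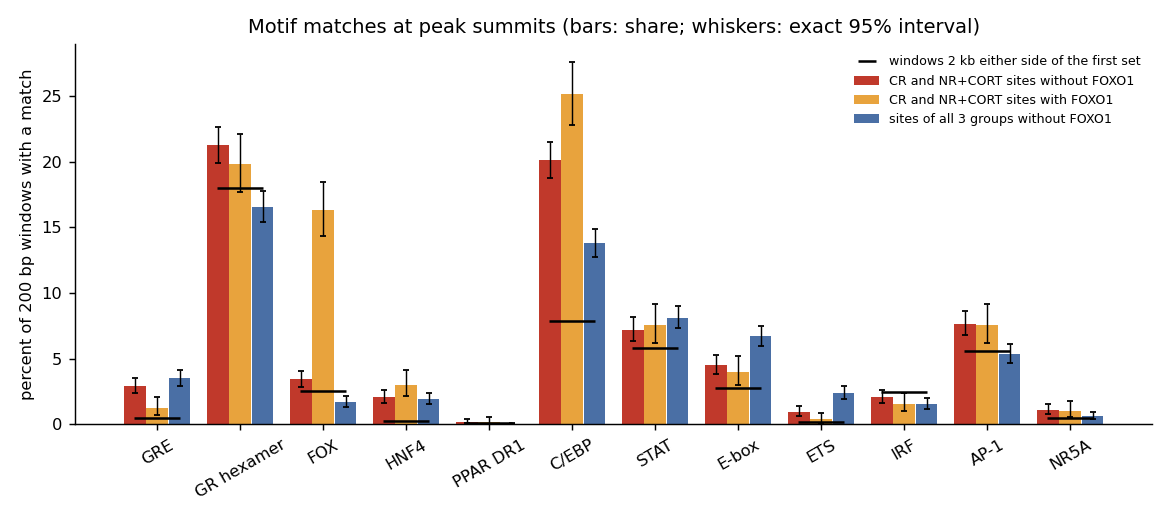
Percent of 200 bp summit windows with at least 1 match (vertical axis) for 12 motifs in the 3 sets, with exact 95% intervals as whiskers and the share in windows 2 kb either side of the shared sites without FOXO1 as a black dash. The forkhead element (FOX) stands at 16.3% with FOXO1 and at 3.43% without it.

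Against constant sites without FOXO1 the picture depended on what was held equal. Median GC content was 49.5% at the shared sites and 55.5% at the constant ones. Within strata of GC, the GRE (2.93% against 3.51%; odds ratio 0.591 with an interval of 0.453 to 0.772; adjusted p = 0.000599, n = 3378 and 3993) and the STAT element TTCNNNGAA (7.22% against 8.14%; odds ratio 0.660 with an interval of 0.552 to 0.789; adjusted p = 3.43e-05, n = 3378 and 3993) were less frequent at the shared sites. The GRE turned around in strata of mean percentile (odds ratio 1.51, adjusted p = 0.0129, n = 3378 and 3993), and at the 179 sites without any NR peak (2.19, adjusted p = 0.0106, n = 179 and 3993). It also did without NR replicate 2 (2.74), where the STAT ratio was 1.35 and did not pass. In strata of mean percentile the STAT ratio was 0.986 and did not pass. Neither element passed without strata (odds ratios 0.831 and 0.879) or with lists of equal length (0.951 and 0.776). A PPAR direct repeat (AGGTCANAGGTCA) was found at 7 shared sites (0.207%) and at 0 of 3993 constant sites, where a count of 0, taken to allow up to 3 counts, allows a share of up to 0.0751% (the exact 95% interval ends at 0.0923%) (adjusted p = 0.0286 by the Cochran-Mantel-Haenszel test, and 0.00423 unadjusted by Fisher's exact test). This call was lost without any 1 of the 6 libraries (adjusted p from 0.0538 without NR+CORT replicate 1 to 0.986 without NR replicate 2, Cochran-Mantel-Haenszel test, n of at least 210 in each set). The forkhead element was at 3.43% against 1.70% (odds ratio 1.46, 1.07 to 1.99), which did not pass within GC strata (adjusted p = 0.0540, n = 3378 and 3993). Without strata its difference was 1.73 points (1.01 to 2.49). In that setting 7 motifs passed, with the largest difference for C/EBP. It was at 20.1% of shared and 13.8% of constant sites (6.30 points, 4.58 to 8.03). The hexamer was at 21.3% and 16.6% (4.68 points, 2.88 to 6.48). AP-1 was at 7.67% and 5.36%, E-box at 4.53% and 6.71% and ETS at 0.977% and 2.40%. None of these passed within GC strata (odds ratios 1.07, 0.954, 1.19, 0.831 and 0.737).

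Matches clustered at the summit for some motifs. In the central bin of 40 bp the shared sites without FOXO1 had 1.10 GRE matches per 100 sites, against a mean of 0.0799 in bins beyond 300 bp, a ratio of 13.7. For HNF4 the ratio was 10.5 and for C/EBP 3.38. The forkhead element had a ratio of 0.895 there, and of 6.07 at shared sites with FOXO1. The 0.895 rests on 17 matches in the central bin. The bins on either side of it held 27 and 35 forkhead matches at the shared sites without FOXO1. These are 0.799 and 1.04 per 100 sites, against a mean of 0.562 in the outer bins. Counts are small in the central bin, with 37 GRE and 22 HNF4 matches.

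**Figure D4:**
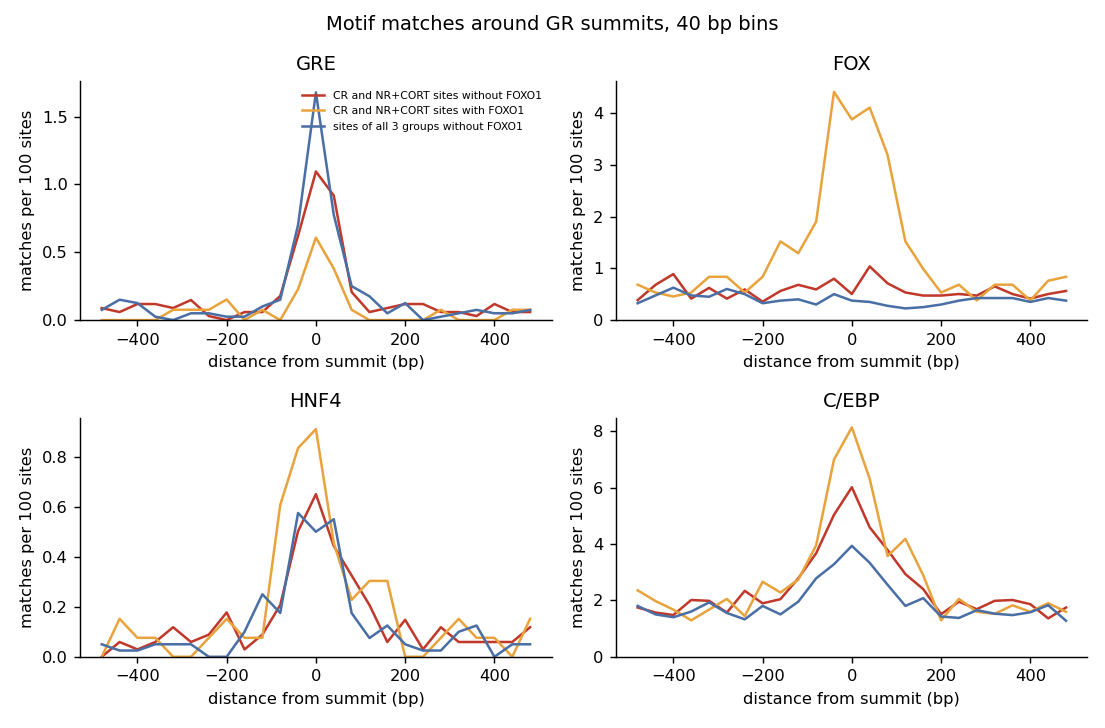
Motif matches per 100 sites (vertical axis) in 40 bp bins by distance from the GR summit (horizontal axis, bp) for GRE, FOX, HNF4 and C/EBP elements in the 3 sets. GRE, HNF4 and C/EBP rise at the summit in every set, and FOX has its central peak, with a ratio of 6.07 to the outer bins, in the shared sites with FOXO1.

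Within the shared sites without FOXO1, those lacking any NR peak carried more GREs. The element was found at 20 of 179 (11.2%, exact 95% interval 6.96 to 16.7) and at 79 of the other 3199 (2.47%, 1.96 to 3.07), a difference of 8.70 points (4.83 to 14.2; Cochran-Mantel-Haenszel odds ratio 4.43, 2.64 to 7.44; adjusted p = 8.19e-09). An IRF element (GAAANNGAAA) was at 10 of 179 (5.59%) and 61 of 3199 (1.91%; Cochran-Mantel-Haenszel odds ratio 2.72, 1.36 to 5.46; adjusted p = 0.0167, n = 179 and 3199). The GRE difference kept its direction and passed in all 15 alternatives that gave it a value, with odds ratios from 2.26 with lists of equal length to 6.39 in strata of mean percentile, and the IRF difference passed in 9 of 15. Without any 1 of the 4 CR and NR+CORT libraries the IRF call was lost, with odds ratios from 1.52 (without CR replicate 1) to 2.24 (without NR+CORT replicate 2). The sites without NR peak did not rank higher, with median percentiles of 41.9 and 39.2 in CR and 47.7 and 59.8 in NR+CORT, against 49.7, 44.5, 54.7 and 70.9 for the other 3199.

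GRE content also rose with rank, which is given as a description. From the lowest to the highest quartile group of mean percentile the GRE share was 0.710%, 2.13%, 2.73% and 6.15%, and the share of promoter sites was 30.9%, 28.6%, 20.3% and 15.7%. The exact intervals of the lowest and highest quartile group did not overlap for either feature (GRE 0.261 to 1.54 and 4.63 to 7.99, promoter 27.8 to 34.1 and 13.3 to 18.4). The C/EBP share was 18.5%, 16.9%, 19.5% and 25.4%. Promoter sites of this set held the GRE in 1.49% and C/EBP elements in 9.43%, and the other sites in 3.38% and 23.4%.

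**Figure D5:**
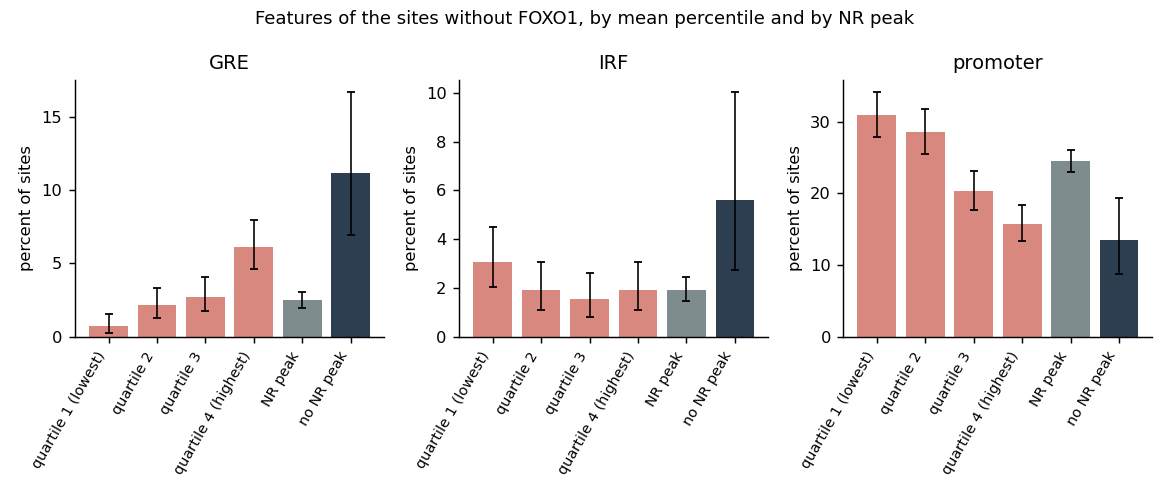
Percent of the shared sites without FOXO1 (vertical axis) that hold a GRE, hold an IRF element or are promoter sites, by quartile group of mean percentile (light red) and by a peak in 1 (grey) or in neither (dark) NR library, with exact 95% intervals. GRE shares run from 0.710% to 6.15% over the quartile groups and reach 11.2% without any NR peak.

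Genes were linked to sites by distance alone, a site centred within 50 kb of the gene start, taken as the outermost start of the annotated gene. Of 21938 protein-coding genes 4384 (19.98%) had at least 1 shared site without FOXO1, and 37.9% had a constant site. Counts for the lists used here are given beside those shares. Neighbouring genes are counted separately and can share a site, as Saa1 and Saa2, Stat5a and Stat5b or Cyp4a10 and Cyp4a14 may. Fatty acid oxidation and ketogenesis genes had one at 8 of 12, among them Ehhadh, a peroxisomal enzyme gene, with 3 such sites and no constant site, and Acot1, an acyl-CoA thioesterase gene, with 2. Hepatocyte identity genes had one at 8 of 13, with 3 sites each for Prox1, a transcription factor gene, and Apoa1, an apolipoprotein gene. Of GR feedback and classic target genes 8 of 16 did, led by the cell cycle inhibitor Cdkn1a with 4 sites and Dusp1 and Nfkbia with 3. Of FOXO and insulin signalling genes 8 of 16 did, with 4 sites each for Pik3r1, the regulatory subunit of phosphoinositide 3-kinase, and the pseudokinase Trib1. The counts were 7 of 14 for cholesterol and bile acid genes, 6 of 12 for acute phase genes, 6 of 13 for STAT targets and 6 of 18 for core clock genes. Gluconeogenesis and amino acid breakdown genes had one at 4 of 16, close to the share over all genes, with 4 sites for Tdo2, the tryptophan dioxygenase gene. Blood and immune cell markers (1 of 12) and neuronal genes (1 of 12) lay below it. Constant GR sites were near 88.9% to 100% of the genes in each list other than the blood and immune markers (50%) and the neuronal genes (41.7%). For constant sites every list thus lay above the 37.9% of all genes, so a high share was not particular to the shared sites without FOXO1.

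At 20 genes chosen by name, 11 had a shared site without FOXO1 within 50 kb and 9 had none: Per1, Errfi1, Klf9, Angptl4, Pck1, G6pc, Ppargc1a, Igfbp1 and Igf1. All 9 had constant GR sites in that range, between 1 (Errfi1) and 6 (G6pc and Igf1). Fkbp5, which encodes a co-chaperone that lowers the hormone affinity of GR, had 2 shared sites. The one 1.61 kb into the gene (chr17:28515361-28516469) had fold enrichments of 3.42 in NR replicate 1, 9.10 and 3.28 in CR and 6.64 and 29.3 in NR+CORT. Its percentiles were 10.8 in NR replicate 1, 76.9 and 9.0 in CR and 53.4 and 97.5 in NR+CORT. Those of CR and NR+CORT overlapped. The other lies 47.9 kb upstream, between genes (chr17:28565080-28565808), with 8.53, 7.93, 7.37, 15.6 and 8.0. Tsc22d3, a mediator of anti-inflammatory glucocorticoid action, had 1 in an intron (chrX:140591101-140591803) with 9.42, 5.6, 5.35, 3.88 and 8.92, and NR replicate 1 had the highest percentile there, 78.9.

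The remaining loci showed the same mixture. All 3 sites assigned to Dusp1, a phosphatase gene for MAP kinases, lie 40.2 to 49.5 kb upstream of its annotated start in introns of Ergic1. That start is the outer end of the annotated gene, chr17:26505590-26562128. Any start inside the gene lies farther from these sites, so the count of 3 rests on the outer start. Zbtb16, a zinc finger factor gene, had a site 48.3 kb into the gene (chr9:48786707-48789174) with fold enrichments of 4.71 in NR replicate 1, 10.5 and 10.8 in CR and 15.5 and 15.8 in NR+CORT, and NR replicate 1 had the lowest percentile, 35.6 against 82.4 to 91.1. Its second site, 16.5 kb from the start (chr9:48818966-48820476), had 8.56, 3.25, 3.76, 6.68 and 4.04, and there NR replicate 1 had the highest percentile, 74.3. A site 19.8 kb upstream of Tat, the tyrosine aminotransferase gene (chr8:109969740-109971532), had 2.90, 5.35, 3.59, 4.11 and 10.5, and its NR peak was at the 1.06 percentile. Near Irs2, an adaptor gene of the insulin receptor (chr8:10974042-10974593), the values were 12.8, 11.7, 7.21, 12.1 and 11.1, and the percentiles 89.3 in NR replicate 1 and 74.2 to 85.3 in the others. Hnf4a, a hepatocyte factor gene, had an intronic site (chr2:163548175-163550715) with 4.27, 4.90, 6.24, 7.52 and 12.9.

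Sites without any NR peak were found at 4 of the 20 genes. Bcl2l1, which encodes an anti-apoptotic protein, had 3 shared sites in its introns, and the one 11.2 kb from the start (chr2:152820263-152820825) had no NR peak, a GRE and an IRF element, and fold enrichments of 6.65 and 6.68 in CR and 9.96 and 15.7 in NR+CORT. At the 2 others NR replicate 1 had 4.43 and 5.99. Cry1, a repressor of the clock, had an intronic site without NR peak (chr10:85161717-85162255) with 6.30 and 4.68 in CR and 4.67 and 3.93 in NR+CORT. It ranked higher in both CR lists (56.9 and 43.1) than in the NR+CORT lists (27.2 and 28.9). Cry1 also had one 2.63 kb upstream (chr10:85187356-85188027) with an NR peak of 3.69. A site 3.08 kb upstream of Socs2, a suppressor of growth hormone signalling (chr10:95419771-95420752), had 7.0, 4.01, 13.3 and 5.35 in CR and NR+CORT, and the percentiles of both groups overlapped. A site 16.6 kb upstream of Cebpb, a liver factor gene (chr2:167671803-167672737), had 4.20, 5.35, 6.64 and 6.78 and held a GRE.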

How the data were processed

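GR ChIP-seq peaks of 6 mouse liver libraries (NR, CR and NR+CORT, 2 each) and 1 FOXO1 list from 2 merged CR libraries were analysed. Samples were grouped by their titles. The authors aligned reads to mm10 with BWA and called peaks with MACS2 per GR library. An input control is not given in the sources used here. In the deposited lists the fold enrichment of a peak is a ratio over the background nearby, and its p-value and q-value stand as -log10 values. The FOXO1 list was called at a stricter q-value. Read depth was not analysed here.

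Of rows with equal start and end only the one with the largest fold enrichment was used, and intervals sharing at least 1 bp were merged. All peak ends lay within the GRCm38 chromosome lengths. Transcription starts came from the basic set of GENCODE M21. Position features were tested by Fisher's exact test (two-sided) and motifs by the Cochran-Mantel-Haenszel test within 5 classes of window GC. P-values were adjusted by the Benjamini-Hochberg method over 14 features in 3 comparisons and a threshold of 0.05. Intervals of differences are Newcombe intervals and those of shares exact, at 95%, and cover counting error only. Sites are not replicates, so these tests compare sites and not animals. The statistics were tested on simulated data, but known odds ratios were simulated over 20 strata. The 5 strata used here were not simulated. The sites and gene lists were chosen with earlier results of these data known. Sites named in the text were the 10 with the highest mean percentile, the 5 highest without any NR peak, all near 20 genes and the 3 on either side of the FOXO1 threshold. Alternatives were stricter q, equal list lengths, other holding and FOXO1 rules, site length, promoter and motif windows, strata, summit choice, ranking by p-value and leaving out each library. Scripts ran under Python 3.11.15 with SciPy 1.17.1, pandas 2.3.3, NumPy 2.4.6 and pysam 0.24.0.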

Additional observations from a re-analysis of the deposited data

How the results depend on the processing

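No paired analysis was possible because the tests run over sites, not over libraries. The number of sites was 862 when all lists were limited to equal length, 1450 when either library could hold a site and 179 when no NR library might have a peak. Leaving out 1 library gave 210 to 5523 sites, with 210 without NR replicate 2 and 5523 without CR replicate 2. The lower promoter share against constant sites without FOXO1 kept its direction and passed in all 15 alternatives (odds ratios 0.155 to 0.513). The higher promoter share against shared sites with FOXO1 kept its direction and passed in 12 of 15. Its odds ratio was 1.86 and no longer passed when either library could hold a site, and was reversed at 0.929 without any NR peak. With a library left out it ranged from 1.06 to 1.97, the lowest without NR replicate 2.

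For a constant site within 10 kb, the odds ratio against shared sites with FOXO1 was 1.10 when either library could hold a site, 1.23 without any NR peak and 0.841 to 1.27 with a library left out (1.27 without NR replicate 2), and passed at 0.791 with no FOXO1 region within 1000 bp. It also passed at 0.861 without CR replicate 2 and 0.841 without NR+CORT replicate 2. Against constant sites it passed at 1.33 when either library could hold a site, at 1.55 without NR replicate 2 and at 0.898 with the stronger 50% of FOXO1 regions. It was 1.38 without any NR peak, 1.05 at sites of at most 1000 bp and 0.952 to 1.55 with a library left out. Between sites without and with an NR peak it was 0.963 at sites of at most 1000 bp, passed at 1.48 with the stronger 50% of FOXO1 regions, and ranged from 1.35 to 1.60 with a library left out, passing without CR replicate 1 or CR replicate 2.

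Against shared sites with FOXO1, 3 motifs passed. The number was 1 when either library could hold a site and 1 to 4 with a library left out (1 without NR replicate 2). The forkhead element passed in all 19 alternatives (0.150 to 0.250) and the GRE in 17 of 19 (not when either library could hold a site or without NR replicate 2). The GR hexamer passed in 11 of 19, and was lost with equal list lengths, without any NR peak, at sites of at most 1000 bp, in the 100 bp window, without GC strata and without CR replicate 1. It reversed to 0.918 when either library could hold a site and to 0.955 without NR replicate 2, and ranged from 0.955 to 1.24 with a library left out. Against constant sites, 3 motifs passed, 0 with equal list lengths, 7 without GC strata, 7 in strata of mean percentile and 2 to 3 with a library left out. The GRE reversed to 2.29 when either library could hold a site, to 2.19 without any NR peak, to 2.74 without NR replicate 2 and to 1.51 in strata of mean percentile, and the STAT element to 1.03 when either could hold a site and to 1.35 without NR replicate 2. Each kept its direction and passed in 13 of 19, and the STAT element was also lost without any NR peak (0.835). With a library left out the GRE ranged from 0.520 to 2.74 and the STAT element from 0.606 to 1.35. The PPAR repeat passed in 5 of 19 alternatives and in none of those that left out a library. Between sites without and with an NR peak, 2 motifs passed, 1 at q of at most 0.01 and 1 to 3 with a library left out (1 without CR replicate 1, NR+CORT replicate 1 or NR+CORT replicate 2). The cause was not tested. Ranking by p-value kept all 10 of the highest-ranked sites and 4 of the 5 without NR peak. The 20 strata of GC content, the restriction to sites outside promoters and the percentile strata for promoter shares were chosen after seeing the data. Without read counts, a site missing from a list is a site not called at that list's threshold, and a weak signal there was not detectable.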
